A study of Mus musculus with 106 samples.

Results

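Primordial germ cells (PGCs) at the early head fold stage were compared with Blimp1+ Hoxb1+ cells. The comparison holds 12 of the 106 single cells of the series: the 8 cells titled as PGCs of the Early-Head Fold stage, and the 4 Blimp1+, Hoxb1+ cells that their descriptions place at the early head fold (EHF). Titles and descriptions disagree on the stage of these 4 cells, since their titles give E/MB, the early to mid bud stage, and number them 5 to 8. The source names also give EHF, and the 4 cells are called cells 1 to 4 here, in accession order. All 12 cells were wild type cells of C57BL/6 mouse embryos, and each array carries the amplified cDNA of 1 cell, picked at random from a dissected and dissociated fragment. The PGCs are labelled Blimp1+ and stella+, and the other cells Blimp1+, Oct4 and Hoxb1+, so the genes behind these names (Prdm1, Dppa3, Pou5f1 and Hoxb1) were used to choose the cells and are no findings. No embryo or litter is named in the labels, so each kind of cell counts as 1 sample. Differences are therefore given by size, with the SD over cells, and no test was made.

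PGCs are the founders of eggs and sperm. In the mouse they are set aside from the posterior proximal epiblast by BMP signals, under the transcription factors Blimp1, Prdm14 and AP-2 gamma, while their neighbours go on to form the allantois and other extraembryonic and posterior mesoderm. Hoxb1 is a gene of that mesodermal programme, which PGCs repress, and the Blimp1+ Hoxb1+ cells were picked for transcripts of both sides. The comparison asks how such cells differ from PGCs across all genes.

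Values are array signals on a log2 scale, raised to a floor of 6.13 set by probe sets of receptor and hair protein genes that serve as background. Detection in a cell means a signal above the 95th percentile of those probe sets there. The 8 PGCs had 10188 to 13195 detected probe sets and the 4 Blimp1+ Hoxb1+ cells 10623 to 13303. With a stricter limit, the 99th percentile, PGCs had more, 7590 to 10085 against 6879 to 7517. That limit differed between the kinds of cell, at a signal of 185 to 265 in PGCs and 333 to 344 in the others. The stricter counts therefore do not compare the kinds of cell at the same signal. Housekeeping genes were level within 1 log2 unit: 0 of 12 members differed by that much, and beta-actin, Actb, stood at 12.64 ± 0.20 (SD, n = 8) and 12.63 ± 0.21 (SD, n = 4). Smaller differences were present. Rplp0 was lower in every PGC, at 13.08 to 13.23 against 13.27 to 13.32, and Eef2 ran higher, at 12.10 to 12.70 against 11.38 to 12.12. In 5 PGCs Xist was detected, and in the other 3 a Y-linked transcript. Of the Blimp1+ Hoxb1+ cells, cell 1 had Xist, cells 2 and 4 a Y-linked transcript, and cell 3 neither. The arrays also differed at a pair of genes chosen after the values were seen. Abca4, a transporter of photoreceptors, read 8.62 ± 0.42 against 6.20 ± 0.08, and Ppp2cb, a phosphatase subunit, 6.18 ± 0.13 against 8.40 ± 0.87 (SD, n = 8 and n = 4). Over the other groups, Abca4 averaged 8.27 to 8.47 in epiblast, precursors and other PGCs, 6.19 to 6.30 in knockout cells and bud-stage Blimp1+ Hoxb1+ cells, and 7.45 in mesoderm. The labels name no array batch, and a difference between arrays and one between kinds of cell cannot be told apart.

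Of 18193 genes, 1263 were higher in head-fold PGCs by at least 1 log2 unit, a linear ratio of 2, which is 6.94% of genes, and 1008 were lower by as much, 5.54%. For 326 genes (1.79%) every PGC lay above every Blimp1+ Hoxb1+ cell, and for 272 genes (1.5%) every PGC lay below. The balance of these last counts depended on scaling: with array medians made equal, they were 242 and 321. The median difference over all genes was 0 and over the 7250 broadly detected genes 0.08. Of those 7250 genes, 952 were higher and 748 lower by at least 1 log2 unit. The shares over all genes are smaller and include 6805 genes not detected in any of the 12 cells. The largest positive differences were at the germ cell genes Dppa3, Tfap2c, Sox2, Kit and L1td1, and the largest negative ones at Gja1, Foxf1, Car4, Fabp7 and Spin2c. Among the 15 largest in each direction, taken from genes that at least 75% of cells on the higher side had detected, 14 and 14 had no overlap between the 2 kinds of cell. As these 30 genes were picked by size, and include Dppa3 and Hoxb1, used to choose the cells, that is a description of them. Of the 37 further probe sets that 15 of the 30 genes have, 17 passed 1 log2 unit in the same direction, 20 did not and 0 passed it in the other.

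**Figure D1:**
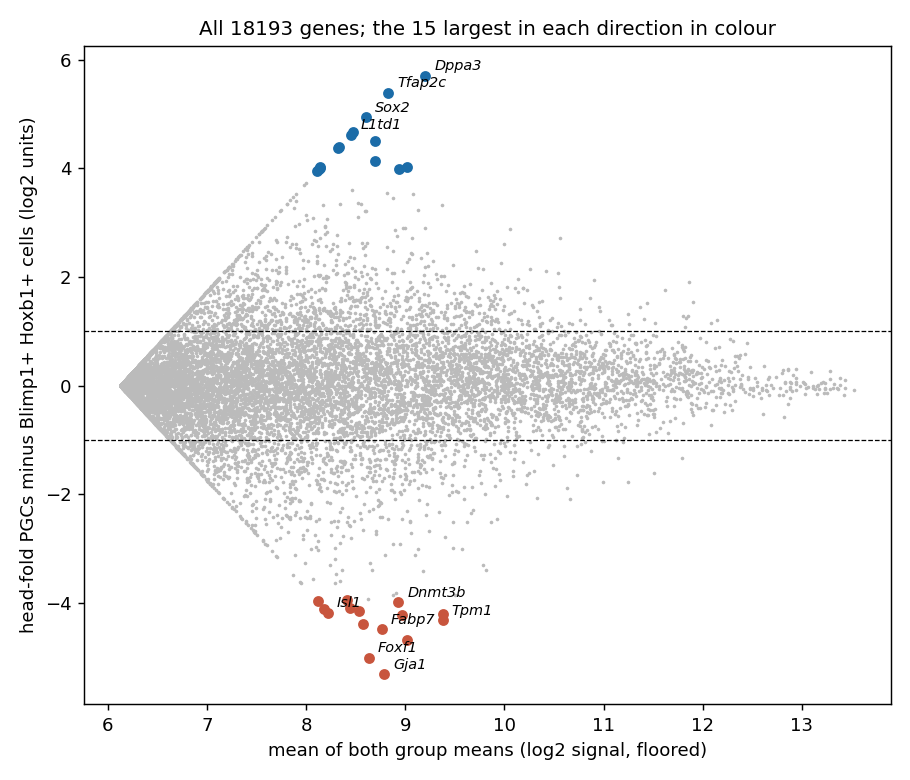
Difference of group means, head-fold PGCs minus Blimp1+ Hoxb1+ cells (log2 units), against the mean of both group means (log2 signal, floored), 1 point per gene for 18193 genes. The 15 genes with the largest differences in each direction are coloured, the dashed lines mark 1 log2 unit, and Dppa3 at 5.70 and Gja1 at -5.31 stand at the ends.

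A set of 3 genes marks the contrast, and the regions before the starts of those with an entry in the promoter table are shown here because the results turn on them. Kit is the receptor for stem cell factor, on which PGCs depend for survival and migration. Its signal in the 8 PGCs ran from 10.45 through a median of 10.85 to 11.24, and all 4 Blimp1+ Hoxb1+ cells were at the floor. This is a ratio of at least 14.6-fold, where the dimmer side is taken at each cell's detection limit. A second probe set of Kit differed by 0.33 only. L1td1, an RNA-binding protein of pluripotent cells that derives from a transposon, ran from 9.01 through 11.09 to 11.74 in PGCs and was not detected in any of the 4 other cells, at 6.13, 6.13, 6.13 and 6.18, a ratio of at least 14.2-fold. Foxf1, a forkhead factor of allantois and lateral mesoderm, was the mirror image. It was at the floor in all 8 PGCs and at 11.48, 10.64, 11.28 and 11.15 in Blimp1+ Hoxb1+ cells, at least 19.2-fold higher. Its other probe set differed by -0.69. Detection in 0 of 4 cells allows detection in up to 60.2% of such cells, and 0 of 8 in up to 36.9%. These exact 95% binomial limits cover counting error only, take the cells as independent draws, which the labels do not settle, and say nothing of transcripts below the limit. They also do not allow for these 3 genes being among the largest differences in the same cells.

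The windows below cover 250 bases before to 50 after the start of transcription, from RefSeq with build GRCm38.p6, written 5′ to 3′ on the strand of the gene. Capitals mark matches to GCCNNNGGC, the palindromic consensus of AP-2 factors, searched for because Tfap2c was among the genes with the largest differences. Kit lies at chr5:75574737-75575036, plus strand, L1td1 at chr4:98726504-98726803, plus strand, and Gja1, the gene with the largest negative difference, at chr10:56377050-56377349, plus strand.
Kit: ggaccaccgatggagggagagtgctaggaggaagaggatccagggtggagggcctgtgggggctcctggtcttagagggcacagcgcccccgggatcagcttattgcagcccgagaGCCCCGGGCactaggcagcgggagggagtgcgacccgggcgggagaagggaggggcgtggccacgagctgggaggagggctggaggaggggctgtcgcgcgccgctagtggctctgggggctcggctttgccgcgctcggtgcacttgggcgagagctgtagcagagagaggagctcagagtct
L1td1: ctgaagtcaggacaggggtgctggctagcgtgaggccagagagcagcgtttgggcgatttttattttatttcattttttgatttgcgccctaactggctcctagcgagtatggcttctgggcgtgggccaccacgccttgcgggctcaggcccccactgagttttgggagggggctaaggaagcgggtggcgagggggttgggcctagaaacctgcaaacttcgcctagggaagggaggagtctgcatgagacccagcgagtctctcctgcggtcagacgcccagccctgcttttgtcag
Gja1: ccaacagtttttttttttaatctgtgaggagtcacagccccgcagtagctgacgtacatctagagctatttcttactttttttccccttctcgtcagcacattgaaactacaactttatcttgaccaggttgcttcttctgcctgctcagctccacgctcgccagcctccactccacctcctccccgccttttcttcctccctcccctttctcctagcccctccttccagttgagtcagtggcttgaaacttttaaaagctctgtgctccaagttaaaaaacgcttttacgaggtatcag
The Kit window holds 1 match, 134 bases before the start, in sequence of 69.0% G and C, while the L1td1 and Gja1 windows hold none, at 58.7% and 47.7%. The motif occurs in 16.6% of the 32851 windows in the table, and 5013 of the 27025 genes there hold a match. Among the 15 genes highest in PGCs, 6 have a window and 3 hold a match (Kit, Nup210 and Selenop), in 4 of 9 windows. Among the 15 lowest, 13 have one and 6 hold a match (Car4, Cited1, Ckap4, Hoxb1, Hoxd9 and S1pr3), in 6 of 15 windows. The octamer ATGCAAAT, which Oct4 binds, occurs in 1.74% of all windows and in 0 of those of the 30 genes. Both strands were searched, the motifs do not overlap, and a match describes the letters only.

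Germ cell genes made up the clearest group higher in PGCs. Of 11 measured determinants and markers, 8 passed 1 log2 unit upwards and 0 downwards, with a median difference of 3.53. Without the genes of the gates and Ifitm3, named in the labels for screening, it was 5 of 8 with a median of 3.76. Tfap2c, which encodes AP-2 gamma, a factor required to form PGCs, ran from 11.06 through 11.55 to 11.82 in PGCs and was at the floor in all 4 Blimp1+ Hoxb1+ cells, a ratio of at least 24.02-fold. Prdm14, a repressor that acts beside Blimp1, ran from 10.02 through 10.39 to 11.31 and was likewise at the floor in all 4 cells, at least 11.9-fold lower. Neither gene overlapped between the kinds of cell. Dnd1, an RNA-binding protein that protects germ cell transcripts, ran from 9.64 through 11.10 to 11.58 in PGCs, against 6.13, 6.13, 7.25 and 8.26. Pdpn, a surface glycoprotein, ran from 8.49 through 11.09 to 11.92 against 6.13, 8.59, 6.13 and 8.40, so cell 2 lay above the lowest PGC.

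Other germ cell markers were present in both kinds of cell. Alpl, tissue-nonspecific alkaline phosphatase, the classic stain for PGCs, was detected in all 12 cells, at 10.64 ± 0.60 and 9.80 ± 0.36 (SD, n = 8 and n = 4), with overlapping cells. Ifitm1, an interferon-induced membrane protein, was also detected in all 12, at 12.62 ± 0.22 and 12.07 ± 0.31. Its relative Ifitm3, called fragilis, stood at 12.81 ± 0.16 against 10.90 ± 0.66, without overlap. Cxcr4, a chemokine receptor of migrating PGCs, was not detected in any of the 12. The gates themselves read as labelled for stella and Hoxb1. Dppa3 was at 12.06 ± 0.38 in PGCs and detected in 1 of the 4 other cells, while Hoxb1 was detected in 0 of 8 PGCs and stood at 10.24 ± 0.43 in the other cells. Blimp1 transcript (Prdm1) was 8.85 to 10.78 in PGCs but only 6.35, 8.12, 8.37 and 7.70 in the cells labelled Blimp1+, below its detection limit in cell 1. Oct4 (Pou5f1) was 10.40 to 11.83 in PGCs against 10.34, 9.29, 9.15 and 9.61, detected in all 12 cells.

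**Figure D2:**
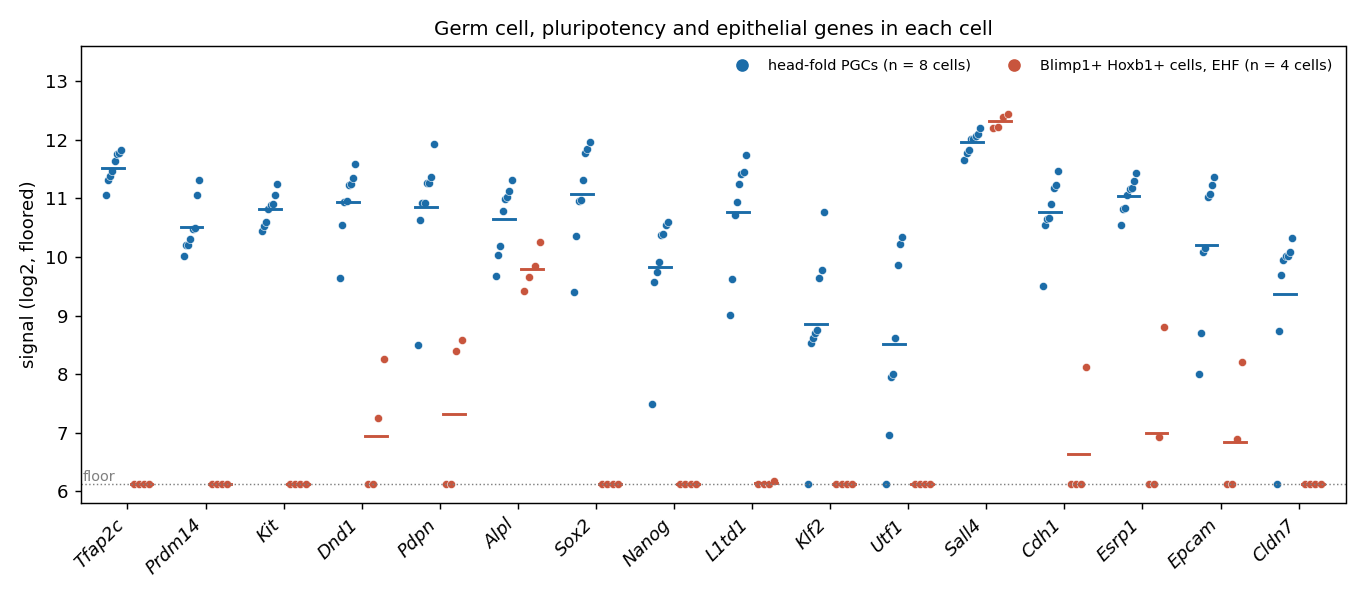
Signal of 16 germ cell, pluripotency and epithelial genes (log2, floored) in each of the 8 head-fold PGCs (blue) and the 4 Blimp1+ Hoxb1+ cells (red), with short lines at group means and the dotted line at the floor of 6.13. Tfap2c, Prdm14, Kit, Sox2 and Nanog are at the floor in all 4 red cells, while Alpl and Sall4 are high in all 12 cells.

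Part of the pluripotency network was higher in PGCs. Of 20 measured members, 9 were higher by that margin and 0 lower, with a median of 0.52. Without Pou5f1 it was 8 of 19 with a median of 0.41. Sox2, the partner of Oct4, ran from 9.40 through 11.15 to 11.96 in PGCs and was at the floor in all 4 other cells, at least 17.6-fold lower. Nanog, a homeobox factor of naive pluripotency, ran from 7.49 through 10.15 to 10.59 in PGCs and was at the floor in all 4. Klf2, a Krüppel-like factor, was detected in 7 of 8 PGCs and Utf1, a chromatin factor, in 6 of 8, both in 0 of 4 other cells. Esrrb, an orphan nuclear receptor, and Tfcp2l1, a factor of the naive state, were patchy, in 5 and 4 of 8 PGCs and 0 of 4 other cells. Klf5 differed by 1.14 and overlapped, and by 0.51 without cell 3 or 0.87 without PGC 3.

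Several members of the network did not separate the cells in this way. Sall4, a zinc finger factor of stem cells, was high in all 12 cells and lower in PGCs by a small margin, at 11.96 ± 0.19 against 12.31 ± 0.12 (SD, n = 8 and n = 4), without overlap. Lin28a, an inhibitor of let-7 maturation, was at 10.35 ± 0.46 and 10.61 ± 0.32. Klf4 and Dppa4 were not detected in any of the 12 cells. Zfp42 was detected in 2 of 8 PGCs, Tdgf1 in 1 and Dppa2 in 1, and all of them in 0 of 4 other cells. Of the 14 genes of the primed epiblast and Nodal signalling, 1 was higher and 0 lower, with a median of 0. This 1 was Sox3, a relative of Sox2, detected in 7 of 8 PGCs and 0 of 4 other cells. Nodal itself was detected in 4 of 8 PGCs and 0 of 4 other cells, and Fgf5 and Otx2 in none of the 12.

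A group of epithelial genes was also higher in PGCs: 6 of 17 measured members against 1 lower, with a median of 0.31. Between the same kinds of cell at the bud stage, 4 were higher and 3 lower, with a median of 0. Cdh1, E-cadherin, ran from 9.50 through 10.78 to 11.46 in PGCs, against 6.13, 6.13, 6.13 and 8.13 in Blimp1+ Hoxb1+ cells. Esrp1, a splicing regulator of epithelial isoforms, ran from 10.54 through 11.10 to 11.43 against 8.81, 6.92, 6.13 and 6.13. Both genes were separated, with 1 of the 4 cells above its detection limit for each. The adhesion molecule Epcam was at 10.21 ± 1.25 against 6.84 ± 0.98 and the tight junction gene Cldn7 at 9.37 ± 1.39 against the floor in all 4, both with overlap. The protease inhibitor Spint2 differed by 2.27, and its relative Spint1 was the member that was lower, by -1.36, or -0.70 without cell 2. Krt18, a keratin of simple epithelia, differed by 1.80 here but by -1.53 at the bud stage. Without cell 1, cell 3 or cell 4 it differed by 1.12, 2.70 or 1.12.

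The other genes among the 15 highest belong to varied functions. Socs2, a suppressor of cytokine signalling, ran from 10.17 through 10.85 to 11.55 in PGCs, against 6.13, 6.13, 7.39 and 6.13. Plcg2, a phospholipase that acts downstream of receptor kinases, ran from 8.67 through 10.33 to 11.29 and was at the floor in all 4 other cells, at least 9.26-fold lower. Mbp, known as the gene of myelin basic protein, whose locus also makes non-myelin transcripts, ran from 9.80 through 10.52 to 11.38 and was at the floor in all 4. The 7 further probe sets of Mbp differed by 0 to 1.62, so only 1 of 8 shows a difference of this size. Tpd52, a vesicle protein, was at 10.14 ± 1.03 and Nup210, a nuclear pore membrane protein, at 10.08 ± 1.07 in PGCs (SD, n = 8), and both were at the floor in all 4 other cells. Selenop, a selenium carrier protein, was detected in 7 of 8 PGCs with a median of 11.01, and 1 PGC was at the floor like the 4 other cells.

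Mesoderm genes were the counterpart. Of the 22 measured genes of allantois and lateral mesoderm, 0 were higher in PGCs and 9 lower by at least 1 log2 unit, with a median of -0.46, or -0.06 without cell 3. After Foxf1, Isl1 differed most: this LIM homeobox factor of second heart field and allantois was at the floor in all 8 PGCs and at 10.10, 8.63, 11.28 and 11.25 in the other cells, at least 10.8-fold higher. Hand1, a bHLH factor of extraembryonic and lateral mesoderm, was not confined to them. It was detected in 6 of 8 PGCs, from 6.13 through 7.83 to 10.89, against 10.73, 11.28, 11.60 and 10.72. Bmp4, the secreted inducer of PGCs, was likewise in 6 of 8 PGCs, from 6.13 through 8.73 to 11.63, against 12.09, 11.33, 11.05 and 10.03. Tbx3, a T-box repressor, and Gata6, a zinc finger factor, were each detected in 0 of 8 PGCs and 3 of 4 other cells. Msx2, a BMP target, differed by -1.80 and overlapped.

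The neighbour of Foxf1 on the chromosome, by the order of genes in the RefSeq table, is Fendrr, a long noncoding RNA of lateral mesoderm. It was picked after its values were seen. Fendrr was at the floor in all 8 PGCs and at 10.60, 8.89, 9.97 and 9.59 in the other cells, a difference of -3.63, without overlap. Its window at chr8:121083061-121083360, minus strand, from GRCm38.p6, is shown because Foxf1 has none in the table, and it holds no match to the motifs.
Fendrr: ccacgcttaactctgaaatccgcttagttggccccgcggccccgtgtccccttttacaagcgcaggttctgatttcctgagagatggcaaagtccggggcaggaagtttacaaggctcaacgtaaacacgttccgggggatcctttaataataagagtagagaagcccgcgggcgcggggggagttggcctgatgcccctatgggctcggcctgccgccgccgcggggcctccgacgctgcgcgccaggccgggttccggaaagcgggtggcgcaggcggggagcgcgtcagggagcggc

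Of 15 measured genes of primitive streak and nascent mesoderm, 0 were higher and 5 lower, with a median of -0.05. Mesp1, a bHLH factor of early mesoderm, was at 11.59, 10.76, 10.55 and 11.42 in Blimp1+ Hoxb1+ cells. In PGCs it ran from 6.15 through 6.67 to 8.87 and was detected in 3 of 8, below all the other cells. Cdx4, a caudal factor upstream of Hox genes, was at 9.09, 10.18, 9.34 and 8.03 against 1 detected PGC of 8. Mixl1, a streak homeobox factor, varied among Blimp1+ Hoxb1+ cells, at 11.28, 10.24, 6.39 and 7.999, and was detected in 2 of 8 PGCs. Evx1, a homeobox gene of the posterior streak, was detected in all 12 cells and differed by -1.21, or by -0.96 without cell 1 and -0.99 without PGC 3. Eomes, Gsc and Lhx1 were not detected in any of the 12.

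**Figure D3:**
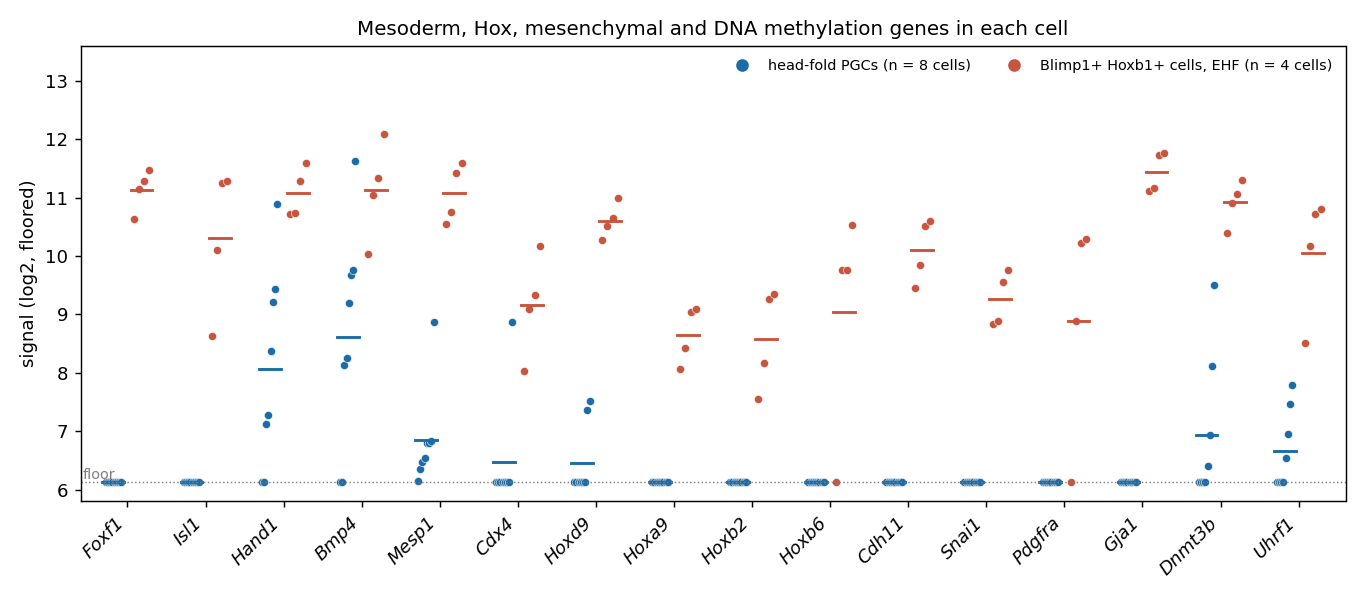
Signal of 16 mesoderm, Hox, mesenchymal and DNA methylation genes (log2, floored) in each of the 8 head-fold PGCs (blue) and the 4 Blimp1+ Hoxb1+ cells (red), with short lines at group means and the dotted line at the floor of 6.13. Foxf1, Isl1, Hoxa9, Hoxb2, Cdh11, Snai1, Pdgfra and Gja1 are at the floor in all 8 blue cells, while Hand1 and Bmp4 run from the floor to 10.89 and 11.63 among them.

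Hox genes, which set position along the body axis, were lower in PGCs. Of 24 measured, 0 were higher and 11 lower by 1 log2 unit or more, 8 of them with every PGC below every other cell, and the median was -0.85. Without Hoxb1 it was 10 of 23 with a median of -0.75. Members of all 4 clusters were among the lower ones. Hoxd9 was at 10.998, 10.51, 10.65 and 10.27 in Blimp1+ Hoxb1+ cells and detected in 2 of 8 PGCs, with a highest value of 7.52. Hoxa9 was at 8.07, 9.04, 9.09 and 8.42, Hoxb2 at 9.35, 8.17, 9.26 and 7.55, and Hoxa3 at 8.33, 7.68, 7.87 and 8.56, and all 8 PGCs were at the floor for each. Hoxb6 and Hoxa10 were in 3 of 4 cells and Hoxc4 in 2 of 4, none in any PGC. Cell 1 was at the floor for Hoxb6 and cell 2 below its limit for Hoxa10, so the Hox set in use varied between the 4 cells. The number of Hox genes detected ran from 10 to 16 per Blimp1+ Hoxb1+ cell and from 3 to 5 per PGC. Hoxc4 differed by -1.11, and by -0.42 without cell 2. Hoxb3, also among the lower ones, was detected in all 12 cells, at 7.50 ± 0.28 and 8.52 ± 0.26 (SD, n = 8 and n = 4). Its difference was -1.01, and -0.92 to -0.99 without PGC 1, PGC 3, cell 2 or cell 3. Other members did not follow the list. Hoxc6 was detected in all 8 PGCs, at 7.44 ± 0.39, and at 6.45, 7.53, 9.04 and 8.07 in the other cells, below the limit in cell 1. Hoxb5 was detected in 6 of 8 PGCs and 1 of 4 other cells and Hoxc5 in 4 of 8 and 0 of 4, with differences of 0.57 and 0.72. Hoxb4 and Hoxb7 were detected in none.

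Mesenchymal and matrix genes were lower as well, 7 of 19 measured with 1 higher and a median of -0.72. Cdh11, a mesenchymal cadherin, was at the floor in all 8 PGCs and at 9.46, 10.51, 10.60 and 9.85 in the other cells, at least 9.40-fold higher. Snai1, the repressor of E-cadherin, was at the floor in all 8 PGCs and at 8.89, 8.84, 9.55 and 9.76, at least 5.23-fold higher. Pdgfra, a growth factor receptor of mesoderm, was at the floor in all 8 PGCs and in cell 1, and at 8.89, 10.29 and 10.23 in cells 2 to 4. Cdh2, N-cadherin, differed by -1.93 with 2 of 8 PGCs and 3 of 4 cells detected. The exception was Sparc, a matrix protein, which was higher in PGCs by 1.47. Fn1, fibronectin, was high in all 12 cells, at 11.72 ± 0.34 and 12.44 ± 0.30 (SD, n = 8 and n = 4). The cadherins stood opposite each other: Cdh1 was detected in 8 of 8 PGCs and 1 of 4 other cells, and Cdh11 in 0 of 8 and 4 of 4.

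The largest negative difference of all genes was at Gja1, connexin 43, the main gap junction protein of early mesoderm. It was at the floor in all 8 PGCs and at 11.74, 11.11, 11.76 and 11.17 in the other cells, at least 23.8-fold higher. Of its 5 further probe sets, 4 differed by -4.71 to -5.38 and 1 by 0. Car4, a membrane carbonic anhydrase, was at 11.35, 11.33, 12.07 and 10.70 against 2 detected PGCs of 8. Fabp7, a fatty acid binding protein, was at 11.37, 9.69, 11.21 and 11.76 against 1 detected PGC. Spin2c, a spindlin family gene, was at 9.49, 11.25, 11.41 and 10.93, also against 1 detected PGC. In each of these 3 genes the detected PGCs stayed below all 4 other cells.

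Cited1, a transcriptional cofactor, and S1pr3, a sphingosine phosphate receptor, were at 11.48 ± 0.44 and 10.48 ± 0.43 in the Blimp1+ Hoxb1+ cells and detected in 3 and 1 of 8 PGCs. Ckap4, a membrane protein of the endoplasmic reticulum, was at 10.39 ± 0.27 against 1 detected PGC. Tpm1, a tropomyosin, was at 11.54 ± 0.35 against 3 detected PGCs, and 1 of these PGCs, at 11.52, lay among the other cells. Apela, a peptide hormone, and its receptor Aplnr were looked at after the values were seen. Apela was at 9.29, 7.47, 10.54 and 9.84 and Aplnr at 8.64, 9.78, 10.48 and 6.13, with all 8 PGCs at the floor for both.

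Among signalling genes, each pathway held members that differed. The shares over all genes were 6.94% higher and 5.54% lower, so a few such members are no result on a pathway. In the FGF list 5 of 20 were higher and 4 lower, with a median of 0.59. Without cell 2 or without cell 4, 3 were higher. The ligand Fgf3 was at the floor in all 8 PGCs and at 9.88, 10.39, 9.59 and 9.10 in the other cells. The ETS factors that respond to FGF were higher in PGCs: Etv5 was at 11.46 ± 0.38 in PGCs against 9.65 ± 1.09, without overlap, and Etv4 was detected in 7 of 8 PGCs and 1 of 4 other cells. With the bud-stage PGCs that the titles of the 4 cells would pair them with, Etv4 differed by -0.63. Feedback inhibitors of the pathway differed in both directions. Spred2, Dusp6 and Spry2 were higher by 1.81, 1.27 and 1.19, and Dusp4 and Spry4 lower by -2.08 and -1.32. Spred2 was at 10.41, 10.31, 10.27 and 6.13 in Blimp1+ Hoxb1+ cells, and without cell 4 it differed by 0.76. Dusp6 differed by 0.92 without cell 2. Spry2 differed by 2.00 without cell 1, the only Blimp1+ Hoxb1+ cell above the floor, by 0.93 without any of the other 3, and by 0.99 or 0.82 without PGC 6 or PGC 8. In the BMP list 0 of 17 were higher and 5 lower, with a median of -0.37, or -0.73 without cell 4. The inhibitory Smad6 and Smad7 differed by -1.81 and -1.80, the decoy receptor Bambi by -1.46, and Id2, an inhibitor of bHLH factors, by -1.30, or -0.89 without cell 2. Its relatives Id1 and Id3, known targets of BMP, did not follow: they differed by 0.01 and 0.05 and were detected in all 12 cells.

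In the Wnt list 2 of 24 were higher and 4 lower, with a median of -0.14. Without cell 4, 8 were lower. Wls, which carries Wnt proteins to the surface, was at 11.35, 10.82, 10.57 and 10.84 in the Blimp1+ Hoxb1+ cells and ran from 6.13 through 7.13 to 9.60 in PGCs. Porcn, the enzyme that acylates Wnt proteins, was the reverse, from 8.62 through 9.72 to 11.09 in PGCs against 6.13, 8.34, 6.13 and 6.13. Both steps of Wnt secretion thus differed without overlap, in opposite directions. Wnt5b, a noncanonical ligand, differed by -2.74, without overlap. Axin2, a feedback target of the pathway, differed by -0.18 and was detected in all 12 cells. In the Notch list 3 of 13 were higher and 3 lower, with a median of 0. The receptors Notch3 and Notch1 were higher by 2.03 and 1.59 with overlap, and the ligands Jag1 and Dll1 lower by -1.66 and -1.43. Jag1 differed by -0.90 without cell 1 and Dll1 by -0.92 without cell 4. Of the effectors, Hes1 was at the floor in all 8 PGCs and at 8.54, 9.17, 8.60 and 9.65 in the other cells, while Hey1 was at 10.45 ± 0.29 against 8.82 ± 1.79, without overlap. Its 4 values there were 9.64, 9.78, 9.71 and 6.13, so the difference of 1.64 was 0.74 without cell 4, and it was -0.0091 with bud-stage PGCs in place of the head-fold ones.

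Of 12 retinoic acid genes, 0 were higher and 5 lower, with a median of -0.46. Without cell 2, 3 were lower, and without cell 4 the median was -0.02. Crabp1, a binding protein for retinoic acid, was at 11.04, 11.73, 11.46 and 11.78 in Blimp1+ Hoxb1+ cells and in 4 of 8 PGCs, up to 11.68. Cyp26a1, the enzyme that degrades retinoic acid, was at the floor in all 8 PGCs and at 10.90, 8.79, 9.54 and 6.13 in the other cells. In the cytokine list 2 of 15 were higher, the named genes Socs2 and Plcg2, and 5 lower, with a median of -0.32. Without cell 1, 2 were lower. The lower ones included Jak1, a kinase of cytokine receptors, at -2.09, the receptor Lifr at -1.52 (-0.93 without cell 1 and -2.38 without cell 2) and Kitl, the ligand of Kit, at -1.78. Kitl was at 9.54, 10.33, 9.11 and 7.78 in Blimp1+ Hoxb1+ cells and in 4 of 8 PGCs, so receptor and ligand of this pair stood higher in different cells.

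**Figure D4:**
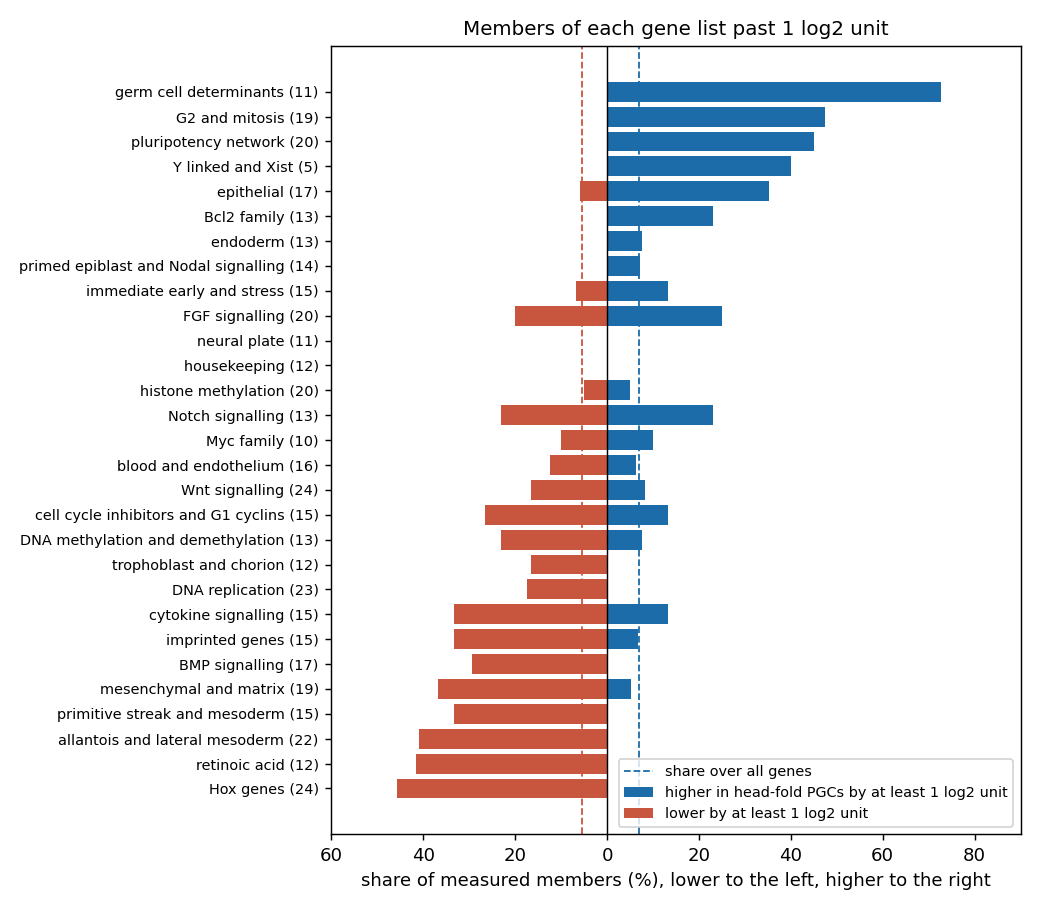
Share of the measured members of each of 29 gene lists (number in brackets, %) that were higher (blue, to the right) or lower (red, to the left) in head-fold PGCs by at least 1 log2 unit; dashed lines mark the shares over all genes, 6.94% and 5.54%. Germ cell determinants, with 8 of 11 higher, and Hox genes, with 11 of 24 lower, are at the ends.

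Genes of DNA methylation differed at 4 of 13 members, 1 higher and 3 lower, with a median of 0.03. Over all genes 6.94% were higher and 5.54% lower, and of the 7250 broadly detected genes 952 and 748 were. A few such members are therefore no result on a list, here or in the lists that follow. Dnmt3b, a de novo methyltransferase, was at 11.07, 11.31, 10.39 and 10.91 in Blimp1+ Hoxb1+ cells and detected in 2 of 8 PGCs, from 6.13 through 6.27 to 9.51. Uhrf1, which brings the maintenance enzyme to replicating DNA, was at 8.51, 10.72, 10.18 and 10.81 against 3 detected PGCs of 8, from 6.13 through 6.34 to 7.80. Neither gene overlapped. The other de novo enzyme, Dnmt3a, was detected in 1 of 8 PGCs and 3 of 4 other cells. The maintenance enzyme Dnmt1 was level, at 10.62 ± 0.58 and 10.58 ± 0.15 (SD, n = 8 and n = 4), and so was Tet1, an enzyme that oxidises methylcytosine, at 8.78 ± 1.15 and 8.49 ± 0.90. Gadd45a, a stress protein linked to demethylation, was the higher member, from 8.02 through 9.29 to 10.42 against 7.25, 6.70, 6.13 and 6.13.

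Of 20 genes of histone methylation, 1 was higher and 1 lower, with a median of -0.27. Ehmt1, GLP, a methyltransferase for histone H3 lysine 9, differed by -1.75 with overlap, and Jarid2, a Polycomb cofactor, by 1.06. The latter differed by 0.24 without cell 4, 1.62 without cell 2 and 0.91 without cell 3, and by 0.83 to 0.98 without any of PGCs 1, 2, 4, 5, 6 and 7. The partner of Ehmt1, Ehmt2, and the arginine methyltransferase Prmt5, which works with Blimp1, were detected in all 12 cells and differed by 0.23 and 0.56. In the Myc family 1 of 10 was higher and 1 lower, with a median of -0.21. Myc was at the floor in all 8 PGCs and at 10.49, 8.56, 8.51 and 6.70 in the other cells. Mycl ran from 8.996 through 9.51 to 10.26 in PGCs against 8.23, 7.29, 7.45 and 6.13, so these 2 relatives separated the cells in opposite directions. Mycn was detected in all 12, at 11.14 ± 0.33 and 10.26 ± 0.53.

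Of 15 imprinted genes, 1 was higher and 5 lower, with a median of -0.64. Igf2, a fetal growth factor, was at 10.76, 10.60, 11.12 and 10.19 in Blimp1+ Hoxb1+ cells. It was detected in 3 of 8 PGCs, 1 of them at 12.37, above all others. Grb10, an adaptor of growth factor receptors, was at 11.25, 11.06, 11.17 and 11.14 against 6.13 through 9.45 to 11.21 in PGCs. Dlk1, a Notch-like ligand, was at 8.47, 8.59, 7.55 and 7.63 against the floor in all 8 PGCs. Mest differed by -2.49, and Plagl1, a zinc finger factor, was the higher member with 6 of 8 PGCs and 2 of 4 other cells detected.

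Cell cycle lists differed with the phase. In the G2 and mitosis list 9 of 19 were higher in PGCs and 0 lower, with a median of 0.95, yet for 0 of 19 did the kinds of cell separate without overlap. Cell 1 of the Blimp1+ Hoxb1+ cells lay among the PGCs: its mean over the list was 10.68, within the PGC range of 10.01 to 11.27, while cells 2 to 4 stood at 8.83, 9.33 and 9.11. Without cell 1, 10 of 19 were higher. Between the cells with Xist, 5 PGCs and cell 1, the median difference was -0.065. Between those with a Y-linked transcript, 3 PGCs and cells 2 and 4, 15 of 19 were higher. Cell 1 is the only Blimp1+ Hoxb1+ cell with Xist, so sex and this cell cannot be told apart. Both of these subsets were chosen after seeing the data. Cenpf, a kinetochore protein, was at 10.94, 7.55, 8.49 and 7.80 against 10.58 to 12.12 in PGCs, and Aurka, a spindle kinase, at 9.76, 6.13, 8.19 and 6.13 against 9.53 to 11.25. Plk1, a mitotic kinase, was at 11.35, 7.40, 9.33 and 9.30 against 10.19 to 11.96. In the replication list 0 of 23 were higher and 4 lower, with a median of -0.19. The origin licensing factor Cdc6 was at 9.41, 10.05, 9.06 and 10.65 against 3 detected PGCs of 8, and Gins2, a helicase subunit, at 9.28, 10.08, 10.87 and 10.35 against 3 of 8, both without overlap. The helicase subunit Mcm7 was high in all 12 cells and higher in PGCs by 0.36.

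Of 15 inhibitors and G1 cyclins, 2 were higher and 4 lower, with a median of 0. Ccne2, cyclin E2, was at 8.78, 10.36, 10.23 and 8.85 against 2 detected PGCs of 8, without overlap. Cdkn1c, p57, was lower by -2.10 and Cdkn1a, p21, higher by 2.78, the latter detected in 6 of 8 PGCs and 0 of 4 other cells. Cdkn1a did not differ this way at the bud stage, where the difference was -0.24. In the Bcl2 family 3 of 13 were higher and 0 lower, with a median of 0.32. The 3 are BH3 genes, which promote cell death: Bmf, Hrk and Bid, higher by 1.97, 1.74 and 1.27, each with overlap. Bid differed by 0.60 without cell 3.

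Marker lists of other cells that a dissected fragment can hold were silent to differing degrees. Of 16 blood and endothelium genes, 10 were not detected in any of the 12 cells, including Pecam1, Tal1, Gata1 and the globin Hbb-bh1. The list had 1 higher and 2 lower members, and its mean ran from 6.30 to 6.65 in PGCs and from 6.36 to 6.71 in the other cells. The higher member was Lmo2, a cofactor of blood and vessel formation, in 6 of 8 PGCs and 2 of 4 other cells. The lower ones were Gata2 and Etv2, both with overlap. Gata2 was at 8.24, 9.69, 9.63 and 9.39 in Blimp1+ Hoxb1+ cells and Etv2 at 6.23, 6.13, 9.08 and 10.01. Of 13 endoderm genes, 6 were not detected in any cell, Foxa2 and Foxa1 among them, with 1 higher and 0 lower and means of 6.34 to 6.71 and 6.31 to 6.72. The higher member was Sox17, in 6 of 8 PGCs and 2 of 4 other cells. Apoa1, an apolipoprotein, was above its limit in 1 of 8 PGCs and 4 of 4 other cells, Afp, alpha-fetoprotein, in 0 of 8 and 2 of 4, and Ttr, a product of visceral endoderm, in cell 4 alone, at 10.0004. Their part in the results was not tested. Of 11 neural plate genes, 10 were not detected in any cell, and 0 were higher or lower, with means of 6.13 to 6.38 and 6.13 to 6.23. In the trophoblast and chorion list 7 of 12 genes were detected in at least 1 cell. The list means ran from 6.83 to 7.59 in PGCs and from 7.68 to 7.98 in the other cells, without overlap. Of the 12 genes, 0 were higher and 2 lower, 1 of them Hand1. The other was Plac1, at 10.73, 10.52, 10.38 and 8.50 in Blimp1+ Hoxb1+ cells against 2 detected PGCs of 8. Elf5 and Tpbpa, which define trophoblast, were not detected in any cell. Immediate early and stress genes, which can rise during dissociation, had 2 of 15 higher, 1 lower and a median of 0. Jund and Ier2 were higher by 1.35 and 1.15 and Junb lower by -1.14. Ier2 differed by 0.61 without cell 4 and just under 1 without PGC 4, and Junb by -0.76 or -0.92 without cell 2 or cell 3. In the list of Xist and Y-linked genes 2 of 5 were higher, Xist by 1.35 and Eif2s3y by 1.63. Xist differed by 2.61 without cell 1, by 0.93 without any other of the 4 cells, and by -1.26 with bud-stage PGCs, and both kinds of cell mix the sexes, as given above.

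The same 2 kinds of cell at the bud stage, 8 PGCs and 4 Blimp1+ Hoxb1+ cells with no cell in common with the 12, gave 947 genes higher (5.21%) and 1004 lower (5.52%) by at least 1 log2 unit. Of the 1263 genes higher at the head fold, 411 were also higher at the bud stage, which is 32.5% of the head-fold list and 43.4% of the bud list. Of the 1008 lower genes, 407 were shared, 40.4% and 40.5%. At the bud stage every PGC lay above every Blimp1+ Hoxb1+ cell for 306 genes (1.68%) and below for 187 (1.03%), and 92 and 57 of these did so at both stages. Of the 15 highest genes, which include the gate gene Dppa3, all 15 passed 1 log2 unit at the bud stage. Of the 15 lowest, which include the gate gene Hoxb1, 14 did. The exception was Fabp7, which differed by 0.03 there and was detected in 3 of 8 PGCs and 2 of 4 Blimp1+ Hoxb1+ cells.

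Differences were smaller at the bud stage for 14 of the 15 highest and 14 of the 15 lowest genes, but the genes were picked for their size at the head fold. In Blimp1+ Hoxb1+ cells labelled only E/MB, several germ cell genes were above detection where the 4 head-fold cells were at the floor. Kit was detected in 4 of 4 of these bud-stage cells at 7.96 ± 1.51, Tfap2c in 3 of 4 at 8.52 ± 1.94, Prdm14 in 3 of 4 at 7.75 ± 1.28 and Nanog in 2 of 4 at 7.79 ± 1.72 (SD, n = 4). Sox2 was at the floor in all 8 Blimp1+ Hoxb1+ cells of both stages. In PGCs these genes were near level between the stages, with Tfap2c at 11.56 ± 0.11 and Kit at 10.25 ± 1.17 at the bud stage (SD, n = 8). Hox genes showed the reverse in Blimp1+ Hoxb1+ cells: Hoxa9 was detected in 1 of 4 bud-stage cells against 4 of 4, and Hoxa3 in 0 of 4 against 4 of 4. Over the Hox list 4 of 24 were lower in PGCs at the bud stage, against 11 at the head fold. If the titles and not the descriptions of the 4 cells are right, these are differences within 1 stage.

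**Figure D5:**
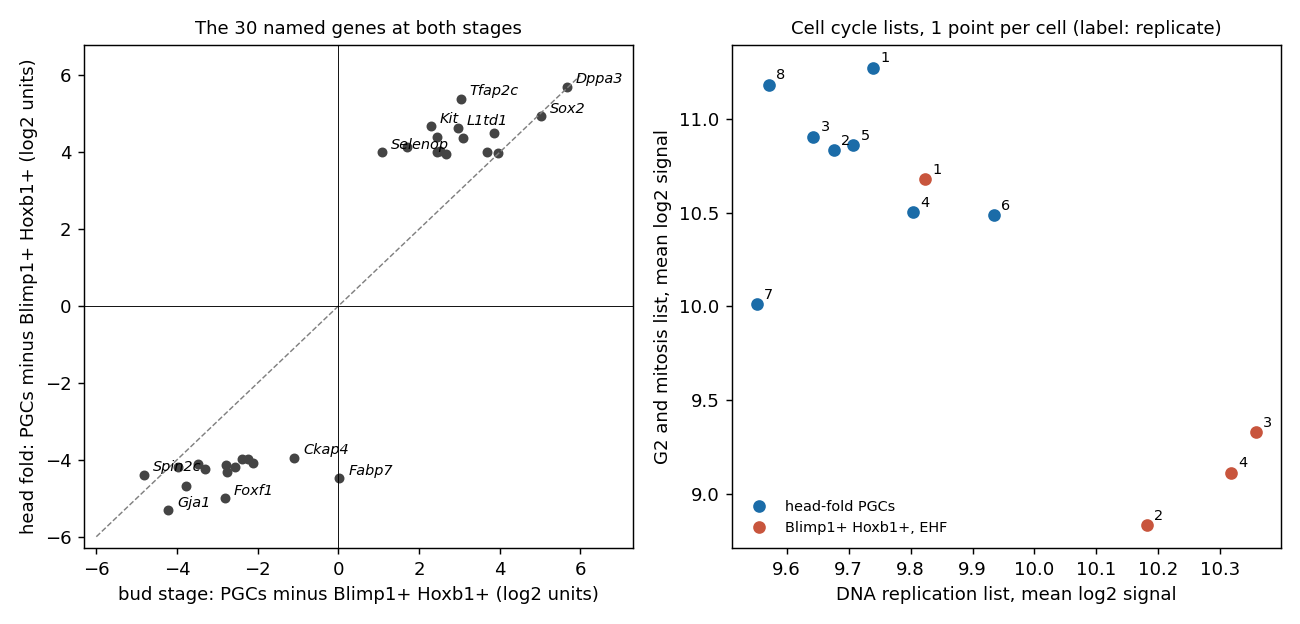
Left, difference between PGCs and Blimp1+ Hoxb1+ cells at the head fold (y axis) against the bud stage (x axis), log2 units, for the 30 named genes, with a dashed line at equal differences; most points are farther from 0 on the y axis, and Fabp7 is at 0.03 on the x axis. Right, mean log2 signal of the G2 and mitosis list (y axis) against the DNA replication list (x axis) in each of the 12 cells, numbered by replicate; Blimp1+ Hoxb1+ cell 1 lies among the PGCs.

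PGCs of embryonic day 8.25 and mesoderm of the bud stage place these levels among their nearest relatives. Kit at 11.18 ± 0.33, L1td1 at 11.47 ± 0.29 and Sox2 at 11.53 ± 0.51 were detected in 8 of 8 of the later PGCs, and Foxf1 and Hoxb1 in 0 of 8 (SD, n = 8). Prdm14 was lower in those later PGCs, at 8.35 ± 1.36 with 6 of 8 detected. Posterior mesoderm cells, chosen as Hoxb1+ without Blimp1, had Foxf1 in 8 of 10 cells at 8.52 ± 1.54, Gja1 in 10 of 10 at 9.87 ± 0.96 and Mesp1 in 10 of 10 at 11.95 ± 0.37 (SD, n = 10). Hoxa9 was detected in 0 of 10 of them and S1pr3 in 5 of 10.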

How the data were processed

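Each array carries the amplified cDNA of 1 cell. The deposited values are linear array intensity per probe set, which the authors produced using MAS5 as the submitters' processing notes record; its version and its scaling were not given in the sources used here. Of these values 15.3% stood at the lowest value of 1. Of 45101 probe sets, 34945 carried 1 symbol by the platform annotation, 932 carried several, 9160 are unnamed here and 64 were controls; those with 1 symbol gave 18193 genes, each read from its probe set with the highest mean over all 106 cells. Of these genes 18031 matched the RefSeq table of GRCm38.p6 by gene ID. The floor, a signal of 70.2, was the median over cells of the 90th percentile of 126 background probe sets (Olfr, Vmn, V1r, V2r, Tas2r and Krtap symbols), and anything below it was set to it before the log2 step. Differences are of group means on this scale, which understates the change of low genes. An "at least" ratio sets the mean of the brighter group against each dimmer cell's detection limit or its own value, whichever is higher. Each kind of cell is 1 sample, so SDs are over cells and no p-value was computed. List means are over measured members; the 29 lists hold 478 symbols, 452 of them measured.

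The text names the 15 largest differences in each direction among genes that at least 75% of cells on the higher side had detected, list members and genes named in the gates. The members and lists were chosen with earlier results of these data known. Alternatives were the floor, the probe sets of a gene, scaling, the cells and the detection limit. Scripts used Python 3.11.15 with numpy 2.4.6, pandas 2.3.3 and scipy 1.17.1, and were checked on simulated data. Rare transcripts can be lost when 1 cell is amplified, so low signal is not absence, and precision is limited by how many arrays there are.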

Additional observations from a re-analysis of the deposited data

Results flagged for a closer look

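Of 342 sets of values, 171 genes in each kind of cell, 42 held a cell that stood apart, its gap to the nearest other cell being large against the range of its kind. Chance gives about 1 in 20 for values that follow a normal distribution, and sets in which most cells are at the floor do not. The 342 also include sets with all cells at the floor, which could not be flagged. The 42 of 342 is therefore no rate to set beside 1 in 20. No explanation was weighed.

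Among PGCs, cell 5 was high for 5 genes that were higher in Blimp1+ Hoxb1+ cells: Ckap4 at 8.61, Mesp1 at 8.87, S1pr3 at 8.24, Slc6a8 at 9.80 and Tpm1 at 11.52. It was low for Cldn7, at 6.13. PGC 8 was high for Cdx4 at 8.87, Gins2 at 8.25 and Spin2c at 8.14 and low for Pdpn at 8.49 and Tet1 at 6.13. PGC 1 was high for Dppa2 at 7.63 and, close to the floor, for Hoxa10 at 6.26 and Hoxc4 at 6.31. PGC 3 was high for Fabp7 at 9.26 and Elf5 at 6.92, the latter below its detection limit, and low for Ifitm1 at 12.11. PGC 4 was high for Car4 at 9.11 and low for Id1 at 9.02. PGC 6 was high for Tdgf1 at 8.54 and Smad6 at 6.30 and low for Bmf at 6.13. PGC 7 was low for Cdh1 at 9.50 and Nanog at 7.49, and PGC 2 for Selenop at 6.13.

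Among Blimp1+ Hoxb1+ cells, cell 4 was low for 5 genes: Hey1 at 6.13, Ier2 at 6.36, Plac1 at 8.50, Spred2 at 6.13 and Tpm1 at 11.01. It was high for Cdh1 at 8.13, L1td1 at 6.18, next to the floor, and Ttr at 10.0004. Cell 1 was high for Dppa3 at 7.01, Spry2 at 9.34 and Xist at 11.18. Cell 2 was high for Klf4 at 6.95 and Hoxc5 at 6.22, both below the detection limit, and Porcn at 8.34. Cell 3 was high for Notch1 at 9.07, Notch3 at 7.52 and Socs2 at 7.39.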

How the results depend on the processing

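None of the 30 genes with the largest differences changed sign under any alternative, and 1 fell below 1 log2 unit, with probe sets averaged. These genes were picked for their size in the same cells, so keeping the sign was largely set by that choice. The gate genes Dppa3 and Hoxb1 are among the 30. Their sizes did move, by at least the larger SD over cells of either kind. This held for 26 of 30 with no floor and 16 with a floor at 2 times the main one. It held for 13 with probe sets averaged and 9 with all 8 Blimp1+ Hoxb1+ cells. Counts of genes moved too. Counts of genes without overlap can only rise or stay equal when cells are left out, whichever cells these are. When cells are added, they can only fall or stay equal. Causes of the other moves were not tested. With no floor, 3004 genes were higher and 2793 lower, with a floor at 2 times the main one 812 and 573, and with probe sets averaged 677 and 541. With equal hybridisation controls, every PGC lay above for 205 genes and below for 122; with PGCs with a Y-linked transcript only, for 1200 and 772; with all 8 Blimp1+ Hoxb1+ cells, for 174 and 117. A further pair of alternatives was chosen after seeing the data. In the one with Xist cells, cell 1 was the only Blimp1+ Hoxb1+ cell. With Y-linked cells in both groups, 1993 genes were higher, and 1849 and 1420 lay all above and all below. With Xist cells in both groups, 1975 were lower, and 1419 and 2235 lay all above and all below. Leaving out 1 cell gave 1249 to 1449 genes higher, 980 to 1171 lower, 353 to 469 all above and 287 to 400 all below. With PGCs at E/MB in place of head-fold PGCs, as the titles of the 4 cells would have it, Etv4 differed by -0.63, Hey1 by -0.0091 and Xist by -1.26, and 5 of 20 pluripotency genes were higher. Xist also differed by -1.26 with Y-linked PGCs only. With Xist cells in both groups, Jarid2 differed by -0.26, Lmo2 by -0.22, Plk1 by -0.40, Spry2 by -0.79 and Xist by -0.86. The median over broadly detected genes was 0.21 with equal hybridisation controls and -0.04 with equal medians, against 0.08. At the stricter detection limit, detections of the 30 genes in the higher group stayed at 179 of 180 and in the lower group went from 25 to 13 of 180. These genes were picked for detection in at least 75% of the higher group, so the first count was largely set by that choice. The stricter limit was also at a higher signal in Blimp1+ Hoxb1+ cells than in PGCs, as given above. Averaging probe sets left 5 lower genes of allantois, 2 higher and 2 lower of FGF, 3 lower of BMP and 1 lower of cytokine signalling; the higher floor left 7 lower Hox genes, 2 lower of FGF and of retinoic acid, and 3 lower imprinted genes. No paired analysis was possible because the 4 Blimp1+ Hoxb1+ cells carry numbers 5 to 8 in their titles, and nothing in the labels ties them to the PGCs of the same number.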

Other observations

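Dppa3 and Nanog, both higher in PGCs, are next to each other in the RefSeq gene table of the mouse, between Gdf3 and Slc2a3. All 4 neighbours were higher in head-fold PGCs than in Blimp1+ Hoxb1+ cells. Dppa3 is a gene of the gates and no finding. Gdf3 and Slc2a3 were looked at after the values of Dppa3 and Nanog were seen. Genes beyond Gdf3 and Slc2a3 are not described, and a link with position was not tested. Gdf3, a growth factor of the TGF-beta family, was detected in 6 of 8 PGCs, from 6.13 through a median of 8.36 to 9.26, and was at the floor in all 4 Blimp1+ Hoxb1+ cells. Slc2a3, a glucose transporter, was detected in all 12 cells, from 12.45 through 12.68 to 12.96 in PGCs against 10.47, 11.46, 11.63 and 10.97, without overlap. At the bud stage Gdf3 differed by 1.54 and Slc2a3 by 0.98. Slc6a8, a creatine transporter, stood in contrast to its own bud-stage value: it was at 9.96, 10.23, 8.83 and 10.57 in Blimp1+ Hoxb1+ cells against 1 detected PGC of 8 at the head fold, a difference of -3.31, and differed by 1.07 at the bud stage.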
